A study of Homo sapiens with 40 samples.

Results

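The interferon regulatory factors (IRFs) are transcription factors that share a DNA-binding domain recognising GAAA repeats in the promoters of interferon-responsive genes. The chromatin around 8 IRF genes (IRF1, IRF2, IRF3, IRF4, IRF5, IRF7, IRF8 and IRF9) was examined in BT474 and BT474R cells by ATAC-seq, which reads out accessible DNA through the cuts of a transposase. Peaks of all 40 libraries that overlapped by at least 1 bp were merged, and merged regions found in at least 2 libraries were kept. A region was assigned to an IRF gene when its midpoint lay in the gene body or within 50 kb of either end. This gave 65 regions of 71600 in all, of which 13 belonged to IRF1, 12 to IRF2, 10 to IRF3, 3 to IRF4, 4 to IRF5, 8 to IRF7, 2 to IRF8 and 13 to IRF9.

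BT474 is an established breast ductal carcinoma line with high HER2 whose growth is inhibited by trastuzumab, an antibody against HER2. BT474R is a single resistant clone selected from it in trastuzumab, so a difference between the lines is a difference between this clone and its parent. All cells were serum-starved, and then received epidermal growth factor (EGF, a ligand of EGFR), heregulin (HRG, which binds HER3 and HER4), or water as the vehicle control, for 1, 12 or 24 h, while baseline cells were collected at 0 h, straight after starvation. Each of the 20 groups had 2 libraries. Nothing in the sources used here says that the 2 came from separate passages, so the p-values measure the spread between libraries, which may be partly technical.

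IRF1 is induced by interferons and activates interferon-responsive genes, and IRF2 binds the same sites and opposes it. IRF3 and IRF7 are phosphorylated by the kinases TBK1 and IKKε when sensors detect foreign nucleic acid, and then switch on the interferon genes themselves, while IRF5 acts downstream of Toll-like receptors. IRF9 is the DNA-binding subunit of ISGF3, a complex that carries the response to type I interferon to its target genes. IRF4 and IRF8 are best known from lymphoid and myeloid cells.

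Sequences are shown for 4 windows at regions that the ligand results below describe. A link between a motif and a ligand response was not tested. The first pair are RefSeq promoters (GRCh38.p14), which span 250 bases before to 50 after the start of transcription and lie whole inside the IRF1 and IRF9 promoter peaks. The IRF1 window is chr5:132490724-132491023 on the minus strand and the IRF9 window chr14:24161015-24161314 on the plus strand. The other pair are 300 bp around the summits of an IRF2 intronic region and of an intergenic region downstream of IRF4 (GRCh38, plus strand), at chr4:184417881-184418180 and chr6:422761-423060. Capitals mark matches to the STAT consensus TTCNNNGAA (GAS) in the promoters and to the AP-1 consensus TGANTCA in the IRF2 window, searched on both strands.
IRF1 promoter: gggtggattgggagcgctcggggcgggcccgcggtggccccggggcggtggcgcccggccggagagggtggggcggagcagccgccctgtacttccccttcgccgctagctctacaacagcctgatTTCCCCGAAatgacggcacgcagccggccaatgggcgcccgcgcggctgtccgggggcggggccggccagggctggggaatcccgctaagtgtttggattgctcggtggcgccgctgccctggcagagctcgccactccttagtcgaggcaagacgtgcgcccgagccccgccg
IRF9 promoter: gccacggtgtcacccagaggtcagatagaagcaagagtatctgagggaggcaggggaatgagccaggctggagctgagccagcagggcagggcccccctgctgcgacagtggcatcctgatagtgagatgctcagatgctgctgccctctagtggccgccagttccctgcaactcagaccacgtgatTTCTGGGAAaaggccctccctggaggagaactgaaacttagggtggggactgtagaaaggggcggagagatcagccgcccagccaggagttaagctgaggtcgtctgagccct
IRF2 intron: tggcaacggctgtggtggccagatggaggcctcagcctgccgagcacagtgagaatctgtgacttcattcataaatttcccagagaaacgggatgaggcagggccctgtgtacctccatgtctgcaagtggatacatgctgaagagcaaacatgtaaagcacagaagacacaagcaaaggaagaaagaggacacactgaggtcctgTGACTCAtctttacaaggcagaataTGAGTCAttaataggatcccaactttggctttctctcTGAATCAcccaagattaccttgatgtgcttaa
IRF4 downstream: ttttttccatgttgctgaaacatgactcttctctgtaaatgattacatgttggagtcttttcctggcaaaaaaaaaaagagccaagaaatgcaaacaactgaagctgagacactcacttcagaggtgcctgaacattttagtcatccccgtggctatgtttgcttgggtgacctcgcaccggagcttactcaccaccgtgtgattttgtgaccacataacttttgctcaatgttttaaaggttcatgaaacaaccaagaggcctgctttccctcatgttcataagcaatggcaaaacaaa
The IRF1 and IRF9 promoter windows each held 1 GAS match, and the IRF2 window held 3 AP-1 matches. None of the motifs searched was found in the IRF4 window, which says only that these letters are not there. Over the 65 IRF regions, the 300 bp around the summit held a GAS match in 9 (13.8%, against 8.46% of all 71600 regions and 7.66% of 35116 RefSeq promoters). An AP-1 match was present in 11 (16.9%, against 19.3% of all regions and 7.71% of promoters). The core of the interferon-stimulated response element, a 10-letter motif, was present in 5 (7.69%, against 2.92% and 3.57%), namely the IRF2 promoter, IRF1 regions 39.9 kb downstream and 36.0 kb upstream of the gene start, and IRF9 regions 25.0 kb and 13.9 kb upstream, at the PSME1 and PSME2 starts. A match to the 10-letter NF-kappaB motif was present in 4 (6.15%, against 1.44% and 1.91%). These are counts of letters, not of bound sites.

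Presence and rank were taken from each peak list. A region is called open in a library whose list holds a peak in it. The rank percentile of a region is the share of peaks in the same list with a lower score, from 0 to 100, where the score is the peak caller's area under the curve of significance. An area grows with the length of a peak, so the covered lengths given below are not independent of the rank. Differences in rank percentile are given in points. The lists carry no read totals, so the depth of each library is unknown, and a region without a peak is one where none was listed, not one shown to be closed. In these bulk samples, fewer open cells and less accessibility per cell cannot be told apart. The lists held 47571 to 56846 peaks in BT474 and 32479 to 56494 in BT474R, and the shortest were those of BT474R control at 12 h (32479 and 40331), which enter the comparisons with control below. The IRF regions open per library numbered 40 to 53 in BT474 (median 47) and 36 to 53 in BT474R (median 44). The identity of the cells was checked at promoters of marker genes. All 6 luminal markers were open in all 40 libraries, and of the immune markers PTPRC and CD3E were open in none, while CD14 was open in 13 of 20 BT474 and 0 of 20 BT474R libraries. Both endothelial markers were open in none, and of the fibroblast markers PDGFRB was open in none and COL1A1 in all 40.

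Of the 65 IRF regions, 29 were open in all 40 libraries (44.6%, against 35.1% of all regions). Another 7 were open in BT474 alone (10.8%, against 13.9%) and 8 in BT474R alone (12.3%, against 14%). The IRF regions lay at the start of a coding gene in 33 cases (50.8%, against 25.5%), and their median width was 611 bp against 551 bp. Many of these starts belong to neighbouring genes. The IRF9 locus on chromosome 14 is crowded, and its strongest region, 46.5 kb upstream at chr14:24113511-24115965, covers the starts of NRL and DCAF11 and ranked at 99.6 ± 0.06 (SD, n = 40). The strongest region away from the IRF3 promoter, chr19:49639909-49642792, lies at the RRAS and SCAF1 starts 24.5 kb downstream and ranked at 98.17 ± 0.6 (SD, n = 40). By their means over both lines, the strongest regions away from the other promoters were less high, at 77.57 ± 16.68 for IRF1 (5.7 kb upstream), 70.34 ± 6.94 for IRF7 (47.4 kb downstream), 66.66 ± 5.71 for IRF2 (127.0 kb downstream) and 34.94 ± 17.59 over the 28 libraries with a peak for IRF5 (23.4 kb downstream). The order differed by line, since at IRF7 the region 51.7 kb downstream was higher in BT474R (79.26 against 66.84) and at IRF2 the region 130.7 kb downstream was higher in BT474 (71.68 against 63.75).

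**Figure D1:**
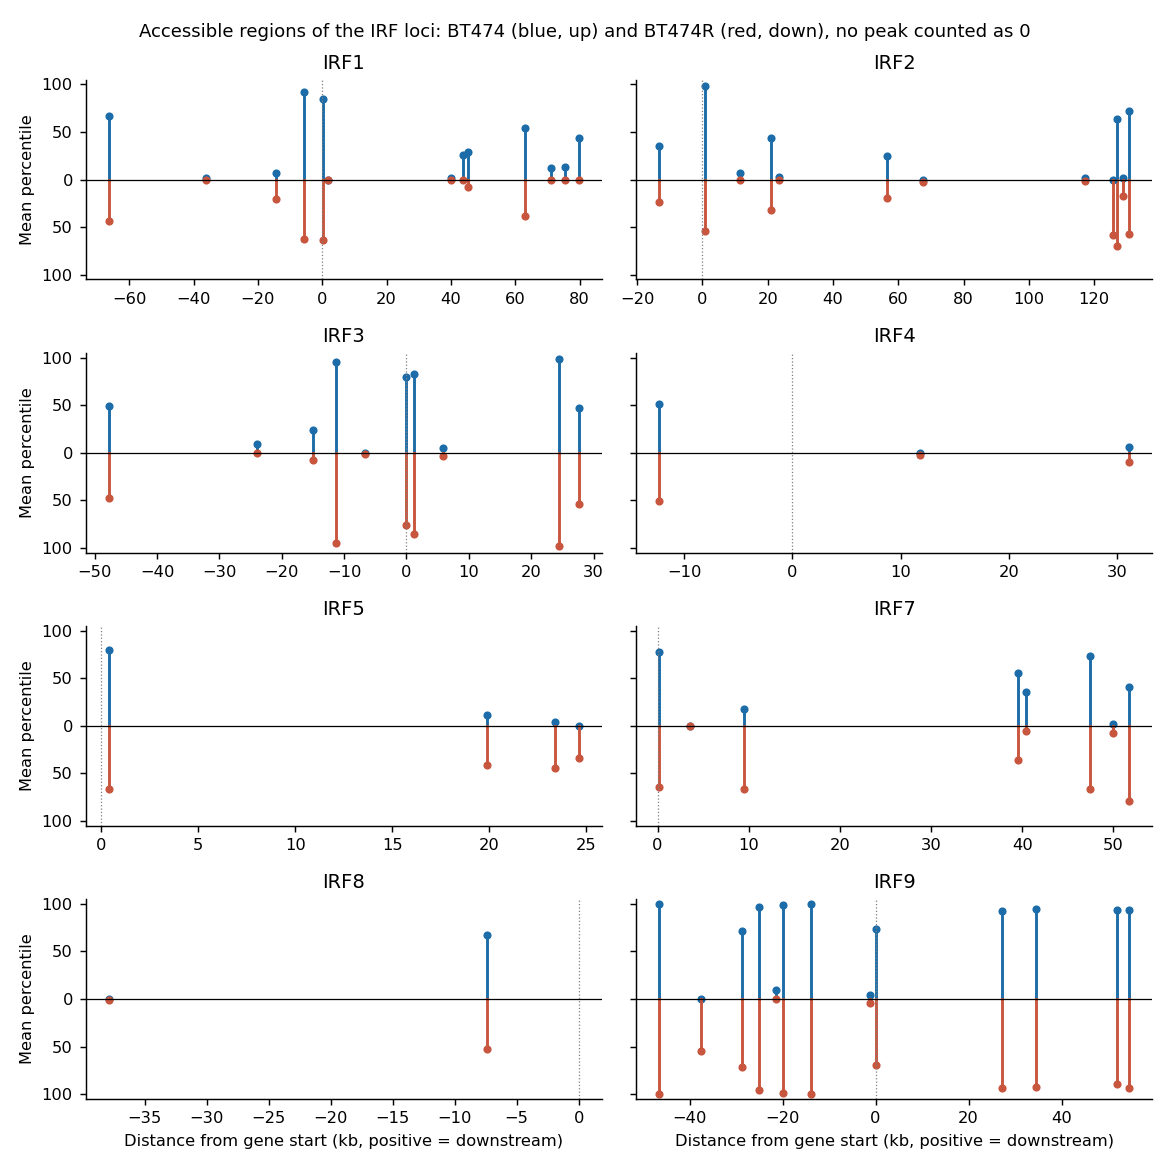
Mean rank percentile of each IRF region in BT474 (blue, upward) and BT474R (red, downward, n = 20 libraries each, no peak counted as 0) against distance from the gene start in kb. IRF1, IRF2, IRF3, IRF5, IRF7 and IRF9 have a bar at the start, and IRF4 and IRF8 do not.

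Promoters of 6 IRF genes held a region within 1 kb of the canonical start, and all 6 were open in all 40 libraries. These genes were IRF1 (chr5:132440440-132508719, minus strand), IRF2 (chr4:184385702-184474558, minus), IRF3 (chr19:49659569-49665875, minus), IRF5 (chr7:128937457-128950038, plus), IRF7 (chr11:612553-615983, minus) and IRF9 (chr14:24161234-24168043, plus), in GENCODE release 44. No promoter region was found for IRF4 (chr6:391739-411443, plus) or IRF8 (chr16:85899116-85922606, plus), the lymphoid and myeloid members. IRF4 had a region 12.3 kb upstream that was open in all 40 libraries, at a mean percentile of 51.33 ± 8.23 (SD, n = 40). IRF8 had a region 7.4 kb upstream (chr16:85891136-85892288) with a peak in 39 libraries, at a mean percentile of 61.85 ± 13.76 (SD over the 39).

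In BT474 the IRF2 promoter stood highest, at a rank percentile of 98.58 ± 0.99 (SD, n = 20), above 95.1% of the 9075 promoters open in all 40 libraries. IRF1 followed at 85.16 ± 1.6, close to the median promoter (85.41). IRF3 (79.73 ± 1.21), IRF5 (79.49 ± 3.05) and IRF7 (78.07 ± 2.1) lay within their spreads of each other, and IRF9 was lowest at 73.65 ± 2.3. In BT474R the order was different. IRF3 stood highest at 75.64 ± 4.04, then IRF9 (68.97 ± 6.69), IRF5 (66.89 ± 8.3), IRF7 (64.86 ± 10.72), IRF1 (64.01 ± 7.48) and IRF2 (54.11 ± 12.9), and each gene lay within the spread of the next. The IRF2 promoter was then above 11.5% of promoters and IRF1 above 21.6%, while the median promoter was at 80.76.

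**Figure D2:**
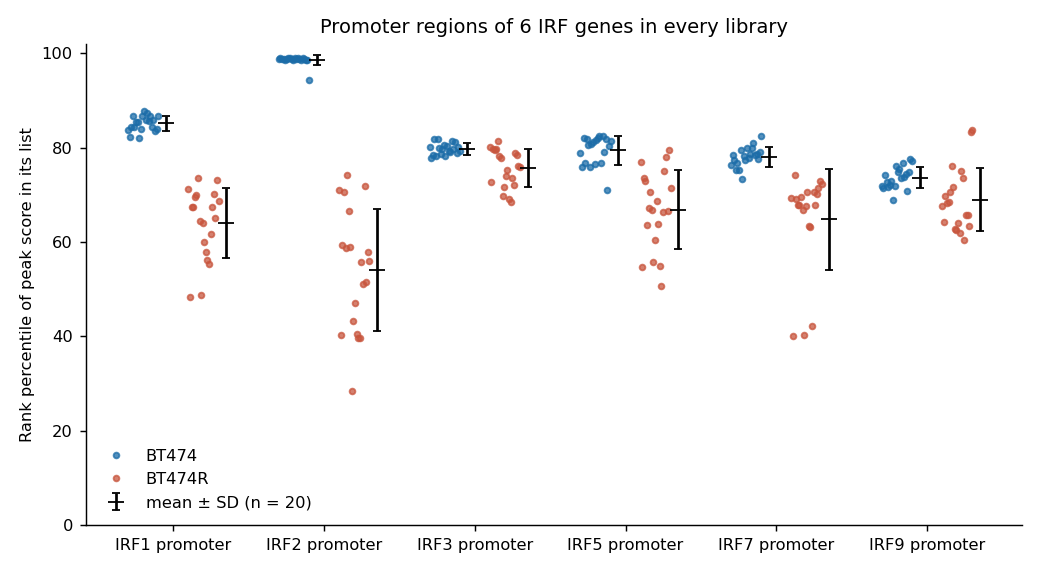
Rank percentile of the 6 IRF promoter regions in each library, by line (20 libraries each, bars are mean and SD). The BT474 points lie close together, and IRF2 moves from the highest mean of the 6 in BT474 to the lowest in BT474R.

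BT474R was compared with BT474 to ask how the resistant clone differs from its parent at these genes. The IRF2 promoter region (chr4:184472239-184475502) ranged from 94.43 to 98.99 in the 20 BT474 libraries (median 98.83) and from 28.4 to 74.16 in the 20 BT474R libraries (median 55.89), so the lines did not overlap. The difference was -44.47 points (SE 2.16, limma adjusted p = 6.02e-15). A fall at least as deep was seen in 31 of 25166 regions (0.123%) and in 6 of 9075 promoters. Peaks covered a median of 3196 bp of this region in BT474 and 1420 bp in BT474R.

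IRF1 also ranked lower in BT474R at both of its strongest regions. The promoter region (chr5:132489942-132491435) lay between 82.08 and 87.73 in BT474 and between 48.26 and 73.55 in BT474R, again without overlap, a difference of -21.15 points (SE 1.51, limma adjusted p = 6.7e-12) that 1277 regions (5.07%) equalled or passed. The region 5.7 kb upstream of the canonical start (chr5:132495581-132497344), which lies within 1 kb of another annotated start of IRF1, lay between 84.41 and 94.74 in BT474 and between 49.0 and 80.41 in BT474R. Its difference was -29.83 points (SE 1.65, limma adjusted p = 6.27e-14), equalled or passed by 365 regions (1.45%). The median length covered by peaks, which is not independent of the score, was 1596 bp in BT474 and 868 bp in BT474R. At the promoter it was 1255 and 558 bp.

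The other promoters fell by less. IRF7, the amplifier of the interferon response, differed by -13.21 points (SE 2.23, limma adjusted p = 9.34e-06) and IRF5 by -12.6 (SE 1.6, adjusted p = 1.38e-07). IRF9 differed by -4.69 (SE 0.69, adjusted p = 1.42e-06) and IRF3 by -4.09 (SE 0.6, adjusted p = 1.14e-06). All 6 promoters were thus lower in BT474R, where the median promoter was also lower (80.76 against 85.41). Among the 9075 promoters open in all 40 libraries, IRF9 stood above 24% in BT474 and 28.9% in BT474R, and IRF3 above 36% and 39.8%. Averaged over all arms, these genes therefore did not fall relative to other promoters. For IRF9 the BT474R mean includes the EGF libraries (mean 77.26), which rose as described below. Its control mean was 64.91 in BT474R against 73.83 in BT474, and its baseline mean 65.96 against 71.65. Where control or baseline alone stood among promoters was not tested. The share below fell for IRF5 (35.5% to 25.6%), IRF7 (32.6% to 22.8%), IRF1 (49.3% to 21.6%) and IRF2 (95.1% to 11.5%). Over all IRF regions open in the 40 libraries, 22 of 29 passed the test, 5 higher and 17 lower, where 82.8% of all 25166 such regions passed, 32.6% higher and 50.2% lower. The median difference was -1.46 points over the 29 and -1.51 over all regions, so the share called and the median were near those of the genome. Of the 6 regions with the smallest p, the remaining ones were IRF9 52.0 kb downstream, at the CHMP4A start (-3.81, SE 0.2, adjusted p = 2.74e-14), IRF2 130.7 kb downstream (-14.17, SE 1.21, adjusted p = 1.83e-10) and the IRF7 region described next. The region 66.3 kb upstream of IRF1, at the IL5 and RAD50 starts, differed by -23.48 (SE 2.37, adjusted p = 3.24e-09).

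That region, 51.7 kb downstream of IRF7 at the start of RASSF7 (chr11:563344-565213), was the IRF region that rose most. The BT474 libraries lay between 8.53 and 60.66 (median 45.31) and the BT474R libraries between 64.25 and 95.55 (median 76.78), without overlap, a difference of 38.07 points (SE 1.6, limma adjusted p = 4.47e-16) that 132 regions (0.525%) and 10 promoters equalled or passed. Peaks covered 382 to 687 bp of it in BT474 and 686 to 1845 bp in BT474R. At IRF4, the region 12.3 kb upstream (chr6:379162-379772) differed by -0.37 points (SE 1.47, adjusted p = 0.821), and by 2.53 when ranked among the regions open in all 40 libraries.

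**Figure D3:**
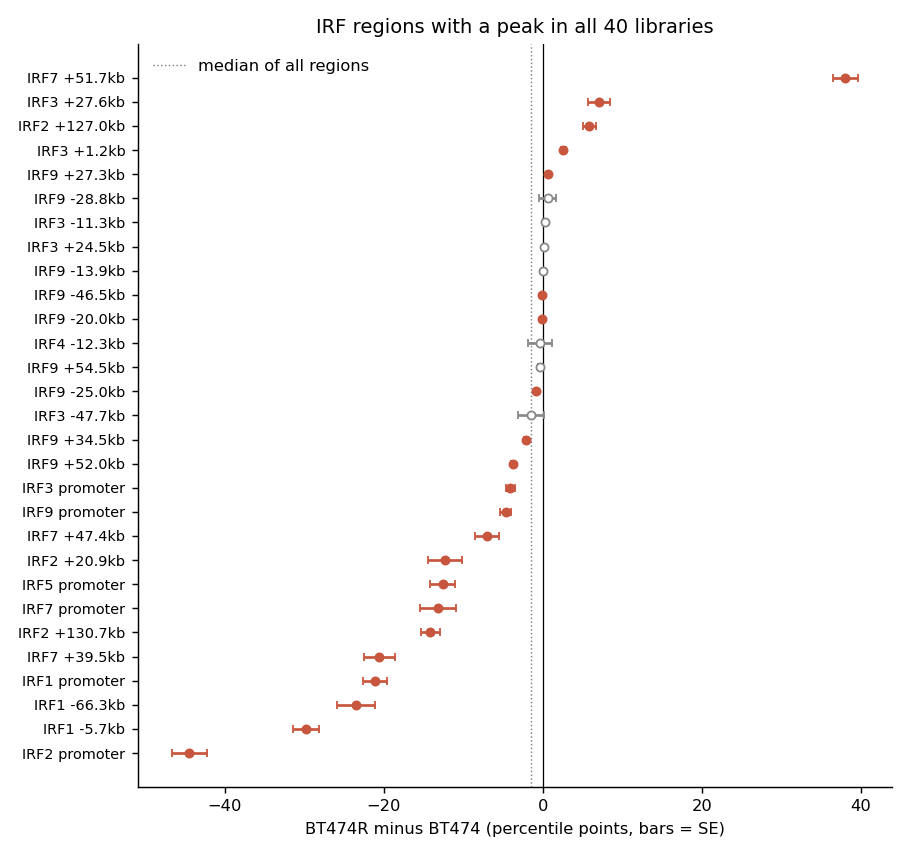
BT474R minus BT474 difference in rank percentile (points, bars are SE, n = 20 per line) for the 29 IRF regions open in all 40 libraries. The IRF2 promoter (-44.47) and the region 51.7 kb downstream of IRF7 (38.07) lie at the ends.

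Regions that came and went between the lines were compared by presence. Of 26 IRF regions whose counts could reach significance, 17 passed Fisher's exact test (20 against 20 libraries, two-sided, adjusted over all regions), 5 higher and 12 lower in BT474R, against 71.7% of all 32683 such regions (27.2% higher and 44.6% lower). At an unadjusted p under 0.05 there were 19, against 79.3%. The lists were shorter in BT474R (median 46641 peaks against 51357), and with an equal number of peaks per library fewer IRF regions passed. Around IRF1 the regions open in fewer BT474R libraries were distal. The regions 79.7, 75.5, 71.0 and 43.7 kb downstream were open in 20, 19, 17 and 19 BT474 libraries and in 1, 3, 0 and 1 BT474R libraries. Over the BT474 libraries with a peak, their mean percentiles were 43.84, 14.25, 14.49 and 27.34. The region 45.2 kb downstream went from 20 to 9 (mean BT474 percentile 29.35) and the one 36.0 kb upstream from 7 to 0 (4.46). The one 14.3 kb upstream was open in 10 BT474 and 17 BT474R libraries (Fisher's exact p = 0.0407, adjusted p = 0.0565). All of the regions downstream lie inside ENSG00000283782, a gene model that overlaps IRF1.

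At IRF2 the changes went both ways. Introns 23.6 and 11.6 kb from the start were open in 10 and 14 BT474 libraries and in 0 BT474R libraries. Their BT474 peaks ranked low, at mean percentiles of 6.38 and 9.13. Beyond the 3′ end, the region 125.8 kb downstream (chr4:184348330-184349182) was open in all 20 BT474R and 0 BT474 libraries (Fisher's exact adjusted p = 1.91e-10), and its neighbour at 128.9 kb in 13 against 2. An intronic region 67.5 kb from the start was open in 5 against 0 (Fisher's exact p = 0.0471). At IRF5 the region 24.6 kb downstream in a TNPO3 intron (chr7:128962283-128962814) was likewise open in all 20 BT474R and 0 BT474 libraries, and the one at 23.4 kb in 20 against 8. At IRF9 the region 37.5 kb upstream in the DCAF11 untranslated region (chr14:24123378-24124062) was open in all 20 against 0. The one 21.5 kb upstream, in EMC9, was open in 0 against 14 (mean BT474 percentile 13.82). The regions open in every BT474R and no BT474 library were thus 3 of 65 (4.62%, against 0.957% of all regions), and the reverse pattern was seen in 0 of 65 (against 2.52%). At IRF3 the regions 15 and 24 kb upstream, in PRMT1 and ADM5, went from 20 to 14 and from 14 to 0. At IRF7 the region 40.4 kb downstream, at the PHRF1 start, went from 20 to 7. The mean BT474 percentiles of these regions were 23.87, 13.46 and 35.14.

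The ligands were compared with control at each gene, averaged over the 3 times, to ask whether EGF or HRG altered IRF chromatin. EGF and HRG share their control libraries. The IRF9 promoter was the IRF promoter that responded, and it did so to EGF in BT474R. Its rank percentiles in BT474R control were 69.71 and 68.3 at 1 h, 62.7 and 62.49 at 12 h, and 60.47 and 65.77 at 24 h. In EGF-BT474R they were 76.11 and 71.62 at 1 h, 75.15 and 73.55 at 12 h, and 83.27 and 83.85 at 24 h. All 6 EGF libraries were above all 6 control libraries, and also above the HRG libraries (61.88 to 70.69) and the baseline libraries (67.69 and 64.23). The averaged difference from control was 12.35 points (SE 1.57, limma adjusted p = 0.000288). A rise at least as large was seen in 1404 of 28260 regions (4.97%) and in 30 of 9147 promoters.

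By time, the IRF9 difference in EGF-BT474R was 4.86 points at 1 h (SE 2.72, limma adjusted p = 0.585), 11.76 at 12 h (adjusted p = 0.0182) and 20.44 at 24 h (adjusted p = 0.001). Each time rests on 2 libraries a group, with the spread pooled over the line. The call at 12 h was lost without control 12 h replicate 1 and without either EGF 12 h library (highest adjusted p = 0.141), and with an equal number of peaks per library (12.07 points, adjusted p = 0.0507). Peaks covered 950 and 961 bp of the 1030 bp region at 24 h of EGF, 839 and 521 bp at 12 h, 513 and 486 bp at 1 h, and 478 to 513 bp in control. The BT474R lists of EGF at 24 h were longer (52126 and 51080 peaks) than those of control (41833 and 45799), and ranked among the regions open in all 40 libraries the 24 h difference was 27.49 points (adjusted p = 0.000966). The region (chr14:24160743-24161772) is also within 1 kb of an annotated start of RNF31, the gene before IRF9 on the same strand.

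EGF and HRG differed at the IRF9 promoter in BT474R, by 11.52 points (SE 1.57, limma adjusted p = 0.00416), a call that was lost without the 12 h libraries (adjusted p = 0.131). HRG-BT474R differed from control by 0.83 (SE 1.57, adjusted p = 0.802). In BT474 the control libraries lay at 71.8 to 76.22 and the EGF libraries at 69.01 to 77.65, a difference of 0.69 (SE 1.16, adjusted p = 0.755). The response to EGF therefore differed between the lines, by 11.66 points (interaction, SE 1.79, limma adjusted p = 0.000552). It was the 1 call among 29 IRF regions, where 3.04% of all regions were called and 0.421% in this direction, and 218 regions (0.866%) and 46 of 9075 promoters had an interaction at least as large.

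The IRF1 promoter, with its own GAS match, did not pass the test for either ligand in either line. In BT474R the 6 control libraries lay between 48.81 and 67.53 (median 65.72), the EGF libraries between 55.28 and 73.55 (median 66.63) and the HRG libraries between 57.79 and 70.13 (median 67.34), so the arms overlapped. The difference was 2.44 points for EGF (SE 3.68, limma adjusted p = 0.798) and 2.66 for HRG (SE 3.68, adjusted p = 0.723). In BT474, where the spread was smaller, it was -0.31 for EGF (SE 0.87, adjusted p = 0.86) and 0.02 for HRG (SE 0.87, adjusted p = 0.992). The EGF interaction was 2.75 points (SE 3.89, adjusted p = 0.838). The promoters of IRF2, IRF3, IRF5 and IRF7 did not pass either, with averaged differences between -1.76 and 5.87 points and adjusted p-values of 0.119 or more.

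**Figure D4:**
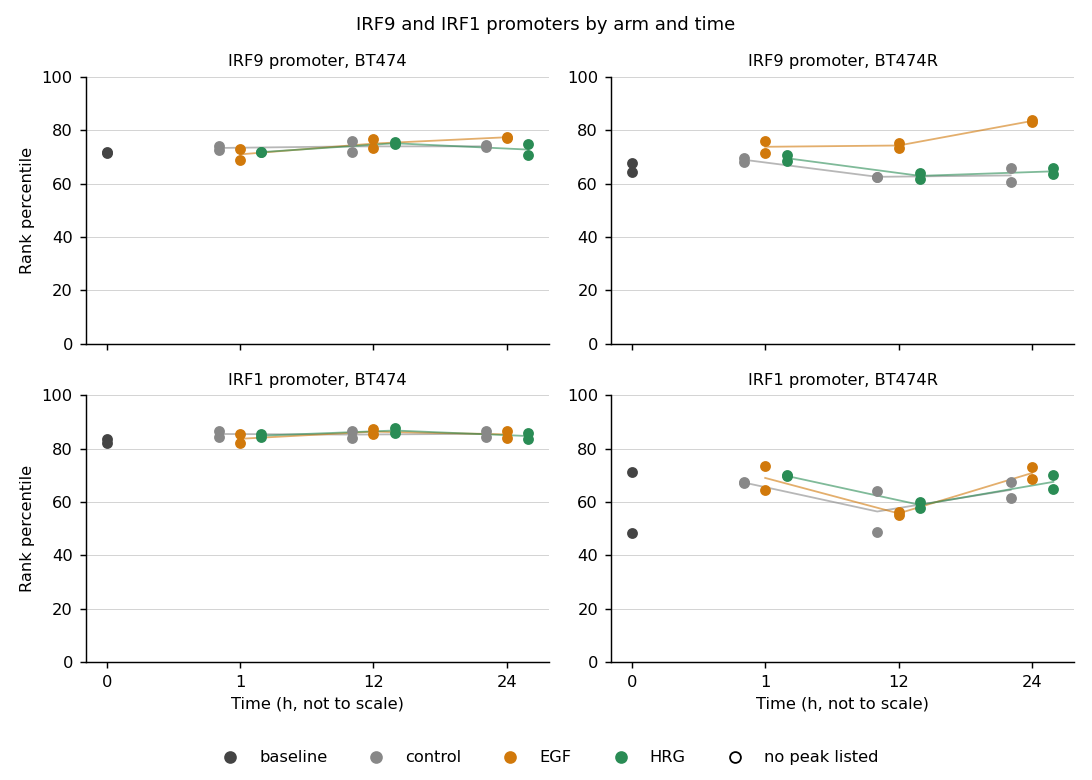
Rank percentile of the IRF9 and IRF1 promoters in each library by time (h, not to scale) and arm, with lines through the means of 2 libraries. In BT474R the EGF points of IRF9 lie at 71.62 to 83.85, above control (60.47 to 69.71) and HRG (61.88 to 70.69), while the IRF1 arms overlap.

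Away from the promoters, an IRF4 region and an IRF2 region had peaks mainly in ligand-treated cells of both lines. The IRF4 region lies 31.1 kb downstream of the gene start between genes (chr6:422696-423073). It was open in 0 of 6 BT474 control, 5 of 6 EGF and 5 of 6 HRG libraries, in 1 of 6 BT474R control, 6 of 6 EGF and 5 of 6 HRG libraries, and in 0 of 4 baseline libraries. The listed peaks were mostly weak. They ranked at 1.62 to 19.26 in EGF-BT474, 11.21 to 15.7 in HRG-BT474, 0.94 to 39.63 in EGF-BT474R and 12.34 to 18.23 in HRG-BT474R. The BT474R control peak was at 1.96. Fisher's exact p was 0.0152 for EGF-BT474 (adjusted p = 0.0796), 0.0152 for HRG-BT474 (adjusted p = 0.0615), 0.0152 for EGF-BT474R (adjusted p = 0.372) and 0.0801 for HRG-BT474R (adjusted p = 1), so no presence comparison passed after adjustment. Across the IRF regions, 0 of 5, 0 of 6, 0 of 3 and 0 of 3 that could be called passed in these 4 comparisons, against 6.46%, 8.98%, 0% and 0% of all regions. At an unadjusted p under 0.05 the IRF4 region was the 1 member called in 3 of them, against 19%, 24.7% and 4.08% of all regions, and none was called for HRG-BT474R, against 2.31%. The next smallest Fisher's exact p was sought only among the IRF regions that could be called. For EGF-BT474 it belonged to the region 23.4 kb downstream of IRF5 (4 of 6 against 1 of 6, Fisher's exact p = 0.242). For HRG-BT474, 3 regions tied at Fisher's exact p = 0.242. Among them was the intron 23.6 kb from the IRF2 start (1 of 6 against 4 of 6). This ranking leaves out the intron 56.5 kb from the IRF2 start, open in 6 of 6 EGF-BT474 and 2 of 6 control libraries. It also leaves out the region 71.0 kb downstream of IRF1, open in 3 of 6 HRG-BT474 and 6 of 6 control libraries. Comparing EGF with HRG, 0 IRF regions passed in either line, adjusted or unadjusted, against 0% and 0.754% of regions in BT474 and 0% and 1.12% in BT474R.

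The IRF2 region, in an intron 56.5 kb from the start (chr4:184417847-184418208) and with the 3 AP-1 matches shown above, was singled out after its values were seen. In BT474 control its percentiles were 8.44 in a 1 h library and 0.62 in a 12 h library, with no peak in the other 4, and both baseline libraries had none. In EGF-BT474 they were 28.4 and 27.13 at 1 h, 37.75 and 53.84 at 12 h, and 53.59 and 54.25 at 24 h. In HRG-BT474 they were 34.05 and no peak at 1 h, 49.53 and 47.88 at 12 h, and 49.04 and 56.84 at 24 h. The EGF libraries were all above control, and so were the HRG libraries except that without a peak. In BT474R the control libraries held 18.53 and 5.59 at 1 h, no peak at 12 h, and 2.49 and no peak at 24 h, against 19.18 to 51.53 in the 6 EGF libraries and 19.29 to 31.65 in the 6 HRG libraries. In BT474R the lowest EGF value (19.18) and the lowest HRG value (19.29) thus lay just above the highest control value (18.53). The region was picked with these values known, so its separation from control in either line is a description only.

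To size these differences, a missing peak was counted as percentile 0, so the sizes mix presence and rank. Both regions had enough peaks for this fit through their ligand libraries, which sets the direction against control, and those differences are given as a description with no test. At the IRF2 region they were 40.99 points in EGF-BT474 (SE 4.67), 38.05 in HRG-BT474 (SE 4.67), 29.66 in EGF-BT474R (SE 2.74) and 21.79 in HRG-BT474R (SE 2.74). With each library left out they stayed within 38.3 to 43.67, 32.37 to 43.72, 27.5 to 31.81 and 19.64 to 23.95. At the IRF4 region they were 7.92 in EGF-BT474 (SE 3.34), 10.91 in HRG-BT474 (SE 3.34), 19.16 in EGF-BT474R (SE 3.38) and 12.61 in HRG-BT474R (SE 3.38). EGF and HRG did not pass a test of their difference at the IRF2 region in BT474 (2.94, SE 4.67, limma adjusted p = 0.798) or BT474R (7.86, SE 2.74, adjusted p = 0.13), nor did a difference between the lines pass for EGF (-11.33, SE 5.39, adjusted p = 0.274) or HRG (-16.25, SE 5.39, adjusted p = 0.094).

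In the same fit, over regions with a peak in some libraries only and with these regions counted, 3 of 13 IRF regions passed for EGF-BT474 (25.5% of all such regions), 5 of 13 for HRG-BT474 (29.5%), 3 of 9 for EGF-BT474R (19.5%) and 2 of 9 for HRG-BT474R (12%). The background regions were admitted in the same way, and nothing is read from these counts. The other regions called were 43.7 kb downstream of IRF1 (16.31 in EGF-BT474, adjusted p = 0.0318, and 14.87 in HRG-BT474, adjusted p = 0.0473), 9.5 kb downstream of IRF7 in a PHRF1 exon (14.25, adjusted p = 0.0242, and 13.63, adjusted p = 0.0293), 71.0 kb downstream of IRF1 (-11.19 in HRG-BT474, adjusted p = 0.0162) and 63.1 kb downstream of IRF1 (19.35 in EGF-BT474R, adjusted p = 0.0229).

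**Figure D5:**
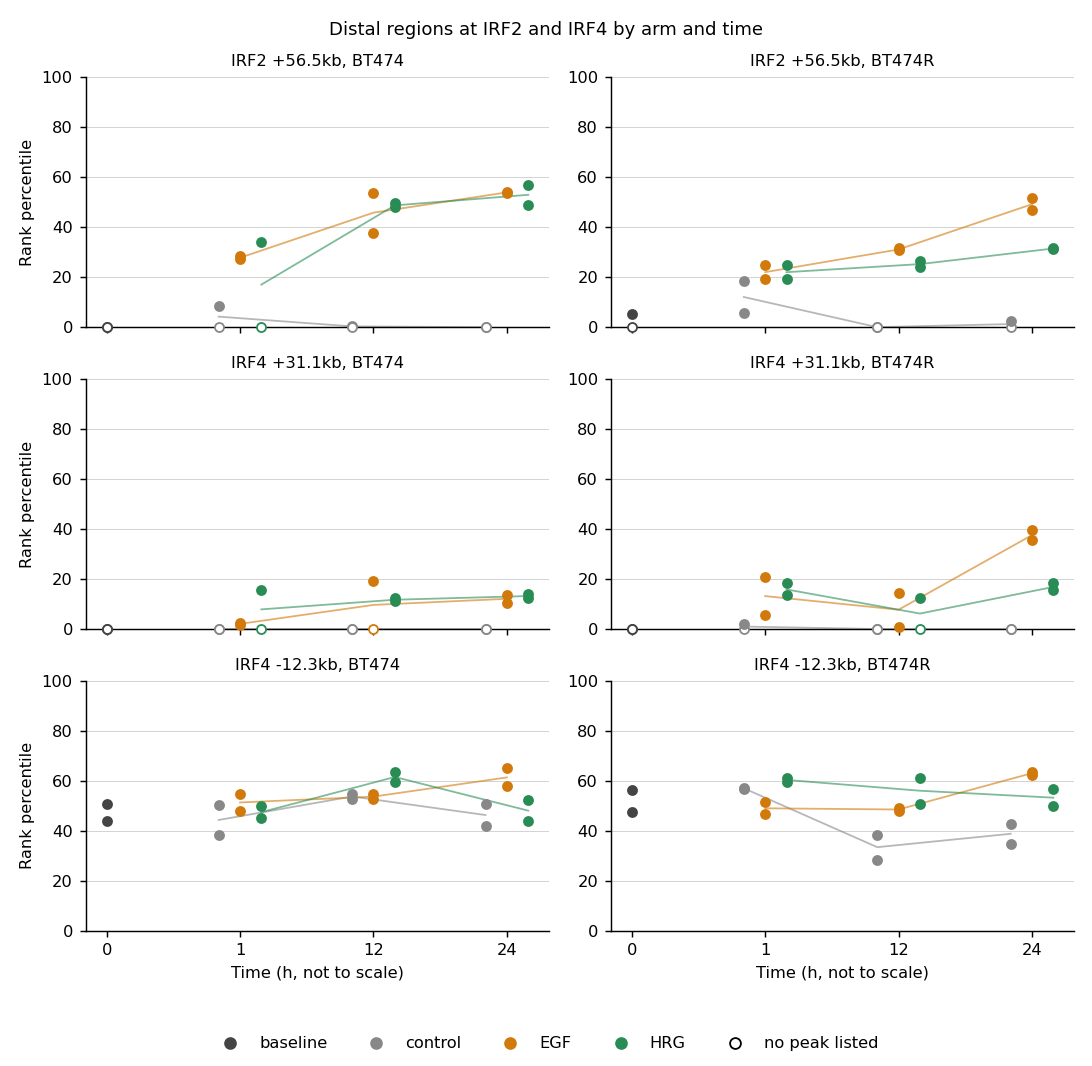
Rank percentile of the distal IRF2 and IRF4 regions in each library by time (h, not to scale) and arm, with open circles at 0 for libraries without a peak and lines through the means. The IRF2 intron (19.18 to 54.25 under EGF) and the IRF4 downstream region have few or no control peaks, and the IRF4 upstream region is open in all libraries.

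Among regions open throughout a line, few IRF regions passed the rank test for a ligand. The counts were 1 of 36 for EGF-BT474 (18.8% of all 36820 regions), 3 of 36 for HRG-BT474 (18.7%), 2 of 35 for EGF-BT474R (14.2% of 28260) and 1 of 35 for HRG-BT474R (8.2%). The median difference over the IRF regions was 0.02, -0.25, -0.4 and 0.83 points, against 0.88, -0.2, -0.07 and 2.32 over all regions. EGF against HRG gave 1 of 35 in BT474R, the IRF9 promoter (3.27%), and 0 of 36 in BT474 (0.0815%). The BT474 region with the smallest unadjusted p, 127.0 kb downstream of IRF2, differed by 4.31 points (SE 1.47, limma adjusted p = 0.227) and was the 1 member at an unadjusted p under 0.05, against 15.1% of all regions. Next was the region 63.1 kb downstream of IRF1, at 7.74 points (SE 3.87, adjusted p = 0.364). The HRG interaction gave 0 of 29 (1.56%), and 5 at an unadjusted p under 0.05 (15.2%). Its smallest p-values belonged to the region 127.0 kb downstream of IRF2 (5.78, SE 2.11, adjusted p = 0.19) and the IRF3 promoter (4.1, SE 1.54, adjusted p = 0.202).

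The IRF4 region 12.3 kb upstream ranked higher with both ligands than in control in BT474R. At baseline it held 56.3 and 47.69. Its control percentiles were 57.15 and 56.87 at 1 h, 28.44 and 38.47 at 12 h, and 34.78 and 42.84 at 24 h. EGF-BT474R held 51.42 and 46.59 at 1 h, 48.05 and 49.0 at 12 h, and 63.72 and 62.39 at 24 h, and HRG-BT474R held 49.77 to 61.25. The ligand libraries were above control at 12 and 24 h, and those of EGF below it at 1 h. The means over the 3 times were 53.53 for EGF and 56.54 for HRG, near the baseline mean of 52.0, while control was at 33.46 at 12 h and 38.81 at 24 h. The averaged difference was 10.44 points for EGF (SE 2.73, limma adjusted p = 0.0209) and 13.45 for HRG (SE 2.73, adjusted p = 0.0114). Both calls were lost without the 12 h libraries (adjusted p = 0.17 and 0.416), and that of EGF also without control 1 h replicate 2, EGF 1 h replicate 1, EGF 12 h replicate 2, control 24 h replicate 1 or either EGF 24 h library (highest adjusted p = 0.0687). At 24 h EGF differed by 24.24 points (SE 4.72, adjusted p = 0.00732) and at 12 h HRG by 22.57 (SE 4.72, adjusted p = 0.00978). The first was lost without control 24 h replicate 1 or either EGF 24 h library (highest adjusted p = 0.108), and the second without control 12 h replicate 1 or HRG 12 h replicate 1 (highest adjusted p = 0.12). With an equal number of peaks per library the second was 14.39 points (adjusted p = 0.0558), and among the regions open in all 40 libraries 13.71 (adjusted p = 0.0306). In BT474 EGF at 24 h differed by 15.04 points (SE 4.61, adjusted p = 0.0439), or 12.43 among the regions open in all 40 libraries (adjusted p = 0.081), and the call held in 11 of 20 fits with a library left out (highest adjusted p = 0.301).

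Other ligand calls were at neighbouring genes. The RASSF7 start downstream of IRF7 rose in BT474 by 15.14 points with EGF (SE 3.47, limma adjusted p = 0.00727) and 13.15 with HRG (SE 3.47, adjusted p = 0.017), calls lost without the 12 h libraries (adjusted p = 0.0663 and 0.419). That of HRG was also lost without HRG 1 h replicate 2, control 12 h replicate 2 or control 24 h replicate 2 (highest adjusted p = 0.0559). At 12 h HRG differed by 27.99 (SE 6.02, adjusted p = 0.0102), a call lost without control 12 h replicate 2 or HRG 12 h replicate 1 (highest adjusted p = 0.112). BT474 control libraries ranged from 23.79 to 51.01 there, EGF from 43.95 to 60.26 and HRG from 32.36 to 60.66, so the arms overlapped, and the baseline libraries were lower still, at 8.53 and 9.87. The PHRF1 start 39.5 kb downstream of IRF7 fell by 5.65 points in HRG-BT474 (SE 1.69, adjusted p = 0.0316). Its differences at 24 h were -11.43 with EGF (SE 2.92, adjusted p = 0.0189) and -10.46 with HRG (SE 2.92, adjusted p = 0.0338). Both HRG calls were lost without the 12 h libraries (adjusted p = 0.0626 and 0.0501). At IRF2, HRG-BT474 lowered the region 127.0 kb downstream, by -5.04 averaged (SE 1.47, adjusted p = 0.0279) and -13.41 at 1 h (SE 2.54, adjusted p = 0.00524), and the intronic region 20.9 kb from the start at 1 h (-22.67, SE 4.58, adjusted p = 0.0074). In HRG-BT474R at 12 h the region 125.8 kb downstream of IRF2 was higher by 38.97 (SE 10.62, adjusted p = 0.0297) and the RASSF7 start by 13.02 (SE 3.38, adjusted p = 0.0247). Both were lost without control 12 h replicate 1 or either HRG 12 h library (highest adjusted p = 0.326 and 0.302), and the RASSF7 call also with an equal number of peaks per library (9.72, adjusted p = 0.145) and among the regions open in all 40 libraries (11.59, adjusted p = 0.118). In BT474 the averaged HRG call held in 10 of 20 fits with a library left out at the region 127.0 kb downstream of IRF2 and in 13 of 20 at the PHRF1 start (highest adjusted p = 0.0832 and 0.0989), and each call at a single time was lost without at least 1 of the libraries of that time (highest adjusted p = 0.238).

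At single times, EGF-BT474 gave 0, 0 and 2 IRF regions at 1, 12 and 24 h (2.92%, 8.23% and 14.7% of all regions) and HRG-BT474 2, 1 and 1 (10.8%, 9.04% and 12%). EGF-BT474R gave 0, 1 and 2 (0.138%, 8.16% and 9.02%) and HRG-BT474R 0, 3 and 0 (0%, 14% and 0.138%). Where limma called 0, the counts at an unadjusted p under 0.05 were 3 and 2 for EGF-BT474 at 1 and 12 h (16.5% and 21.8% of all regions), 6 for EGF-BT474R at 1 h (10.4%), and 0 and 3 for HRG-BT474R at 1 and 24 h (1.05% and 9.87%). Control against baseline gave 0, 0 and 1 in BT474 (0.076%, 0.117% and 0.394%) and 0, 5 and 1 in BT474R (0.0955%, 32.3% and 3.33%). Unadjusted, the zeros were 3 and 3 in BT474 at 1 and 12 h (7.33% and 9.99%) and 4 in BT474R at 1 h (11.8%). The 1 in BT474 was the RASSF7 start, which rose from 9.2 at baseline to 43.89 at 24 h (34.69 points, SE 6.02, limma adjusted p = 0.0288), and the 1 in BT474R was the same region (13.41, SE 3.38, adjusted p = 0.0489). The first was lost without either baseline library or control 24 h replicate 1 (highest adjusted p = 0.239), without the 12 h libraries (adjusted p = 0.0525) and among the regions open in all 40 libraries, where it was 11.63 points (adjusted p = 0.317), and the second held in 5 of 20 fits with a library left out and was lost with the replicate block. The 5 in BT474R at 12 h were all lower in control, from -18.54 points at the IRF4 region 12.3 kb upstream to -40.82 at the region 125.8 kb downstream of IRF2, in the libraries with the shortest lists, and the median over all regions was -8.45. All 5 were lost without baseline replicate 1 or control 12 h replicate 1 (highest adjusted p = 0.276). With list length made equal, by taking the same number of top peaks from each library, the IRF4 difference was -2.45 (adjusted p = 0.755) and that of the IRF9 region 37.5 kb upstream went from -21.07 to -9.53 (adjusted p = 0.483). Ranked among the regions open in all 40 libraries, the IRF4 difference was -3.04 (adjusted p = 0.627) and that of the PHRF1 start went from -25.5 to -6.92 (adjusted p = 0.456).

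Genes that act around the IRFs were described from a list of 45, of which 35 had a promoter region. Those without were TLR3, TLR4, CGAS, TRAF3, MX1, OAS2, IFIT1, IFIT3, GBP1 and CXCL10. For the ligands, 28 could be tested in BT474, where 18.8% of all regions were called for EGF and 18.7% for HRG, and 22 in BT474R (14.2% and 8.2%). The 1 call by limma was IFNGR1, a chain of the interferon-gamma receptor, lower in EGF-BT474 (-5.9 points, limma adjusted p = 0.00804). At an unadjusted p under 0.05 there were 1 in EGF-BT474 (30.1% of all regions), 3 in HRG-BT474 (30.3%), 1 in EGF-BT474R (24.9%) and 1 in HRG-BT474R (22.9%). No list gene passed the EGF interaction (3.04%), where 2 of 22 had an unadjusted p under 0.05 (15.4%). STAT2, a partner of IRF9 in ISGF3, gave an interaction of -0.19 (adjusted p = 0.821).

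Between the lines, 17 of 22 list promoters passed, 3 higher and 14 lower in BT474R, against 82.8% of all regions (32.6% higher and 50.2% lower), and the median difference was -1.38 points against -1.51. The count called and the median thus lay near the background, while the calls leaned more to lower than those of all regions. By role, among those that could be tested, 3 of 4 receptor and Janus kinase promoters were lower, and 4 of 8 sensors, adaptors and kinases. The same held for 1 of 3 IRF2 co-repressors and 5 of 5 target genes. Of the target genes 16 were listed, and TAP1 and PSMB9 share a region. The deepest falls were at IFIH1, which encodes the RNA sensor MDA5 (-34.7, limma adjusted p = 7.35e-12), and MAVS, the adaptor it signals through (-25.17, adjusted p = 1.02e-10). TRAF6 (-14.59, adjusted p = 4.48e-10) and IFNGR1 (-11.37, adjusted p = 1.38e-10) followed. The promoters that rose were IKBKE, which encodes IKKε (16.38, adjusted p = 6.88e-10), MYD88, the Toll-like receptor adaptor (1.97, adjusted p = 1.14e-06), and IRF2BP2, a co-repressor of IRF2 (1.66, adjusted p = 3.25e-10). STAT2 differed by 0.02 (adjusted p = 0.842).

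The promoters whose rank percentile followed that of IRF1 most closely over the 40 libraries were EPHA6 (Spearman's rho 0.95), MTFR1L (0.946) and FIBP (0.946), where the median over the 10310 other promoters compared was 0.598. The libraries fall into the 2 lines and differ in list length, and their depth is unknown, so these values are descriptions. Within BT474 the EPHA6 value was 0.681 and within BT474R 0.917.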

How the data were processed

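Per the methods, the authors trimmed adapters with Trim Galore 0.6.6, used BBMap to align the reads to GRCh38.p13 and samtools to sort them, and ran Genrich library by library to call peaks, removing mitochondrial and blacklisted reads. The sources used here do not give the Genrich options, including any shift to transposase cut sites, which can change peak widths. The score the authors deposited is an area under the curve of significance, with a minimum of 200 in all 40 lists. The −log10 p and −log10 q that the authors deposited were not tested.

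Where several peaks of a list met a region, the highest score counted. Presence was tested by two-sided Fisher's exact tests over regions whose counts could reach p = 0.05, and rank percentile with limma 3.58.1 (trend, R 4.3.3), fitted per line over regions with a peak in all 20 libraries, and over both lines where all 40 had one. P-values were adjusted by Benjamini-Hochberg over all regions tested. The scripts were tested on simulated data. The members, lists and tests were chosen with earlier results of these data known. Named were all promoters, the strongest other region of each gene, and regions called in a comparison (the 6 with the smallest p where more were called, the 2 smallest where none was), plus regions differing in presence at an unadjusted p under 0.05. Any pair of lists shared at most 1.4% identical intervals. Alternatives were a score of at least 400, 32479 top peaks per library, 200 bp either side of the summit, at least 4 libraries per region, 50% of a region covered, the percentile among regions open in all 40 libraries, log2 odds, missing peaks as 0, baseline and control libraries alone, a window of 10 kb, a replicate block, and each library left out. Also used were pysam 0.24.0, samtools 1.23.1, scipy 1.17.1, matplotlib 3.10.9, pandas 2.3.3, numpy 2.4.6 and Python 3.11.15, with GENCODE release 44. Results for some list genes are not reported here.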

Additional observations from a re-analysis of the deposited data

Results flagged for a closer look

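The response of the IRF9 promoter to EGF differed between the lines. EGF minus control was 12.35 points of rank percentile in BT474R (SE 1.57) and 0.69 in BT474 (SE 1.16), and the interaction was 11.66 points (SE 1.79, limma adjusted p = 0.000552). EGF was above control in all 6 BT474R libraries. The interaction kept its call under all 10 alternatives (11.66 to 20.34 points in those on the percentile scale, highest adjusted p = 0.0201). Among these, the window of 10 kb and the rule of at least 4 libraries leave its fit unchanged. Trimming to the summit keeps every peak score, so these settings could hardly change the call and are no support. It also kept its call with each of the 40 libraries left out (10.78 to 12.55, highest adjusted p = 0.0018).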

How the results depend on the processing

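Peak lists without read totals limit these results: a missing peak can be a shallow library, and 6 against 6 libraries left few regions able to pass a presence test. Over the alternatives, 414 of 450 values of single regions kept their direction and their side of the threshold, 36 lost the call and 0 reversed. These totals include the window of 10 kb and the rule of at least 4 libraries, which leave the rank fit of a region unchanged. They also include trimming to the summit, which keeps every peak score. Those settings could hardly change a call of a single region, so their unchanged values are no support. Of 208 counts of called IRF regions, 156 stayed within 1.5 times and 52 moved. With single libraries left out, 414 of 472 counts stayed within 1.5 times. Of 1600 values of single regions, 1495 kept their direction and their side of the threshold. The causes were not tested. The totals for single regions pool calls between the lines with ligand and baseline calls, which were lost more often. They also hold values from the fit with missing peaks as 0 at the IRF2 intronic and downstream IRF4 regions. Its direction against control was set in advance, so those values are no support for these regions. In most pairs of groups the replicate numbers did not pair the libraries, though some pairing is not excluded. Deviations were correlated above 0.1 in 4 of 45 pairs of groups in BT474 and 10 of 45 in BT474R. The median correlations were -0.000399 and 0.00945, and the highest 0.583 and 0.429. The replicate block left all counts within 1.5 times. It took 1 call from a single region, control at 24 h against baseline at the RASSF7 start in BT474R. Trimming to the summit and requiring at least 4 libraries moved no count.

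With a window of 10 kb the count for the lines was 4 in place of 17 by presence and 9 in place of 22 by rank. EGF-BT474 gave 0 averaged and 0 by time (reported 1 and 2), HRG-BT474 0 and 1 (3 and 4), EGF-BT474R 1 averaged (2), HRG-BT474R 0 and 0 (1 and 3), and control against baseline 0 in BT474 (1) and 0 in BT474R (6). With an equal number of peaks per library, presence between the lines gave 10, EGF-BT474 2 averaged and 1 by time, HRG-BT474R 0 by time, control against baseline 0 in BT474 and 1 in BT474R, and the EGF interaction 2 (1). With 50% of a region covered, presence between the lines gave 26. Among regions shared by all 40 libraries, EGF-BT474 gave 3 averaged and 1 by time, HRG-BT474R 1 by time, control against baseline 0 in BT474 and 1 in BT474R, and the EGF interaction 2. With missing peaks as 0, EGF-BT474 gave 4 and 6, HRG-BT474 8 and 8, EGF-BT474R 5 and 7 (3 by time), HRG-BT474R 3 and 5, the lines 38 and the EGF interaction 2. A score of at least 400 gave 2 by time in HRG-BT474, 1 averaged in EGF-BT474R, 0 averaged and 1 by time in HRG-BT474R, and 0 for control against baseline in both lines. The log2 odds gave 3 for control against baseline in BT474. Without 12 h, chosen after seeing the data, EGF-BT474 gave 0 and 1, HRG-BT474 1 and 2, EGF-BT474R 1 averaged, HRG-BT474R 0 and 0, EGF against HRG in BT474R 0 (1), and control against baseline 0 in BT474 and 1 in BT474R.

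With each library left out in turn, presence gave 0 to 1 for EGF-BT474 and HRG-BT474, 0 to 0 for the other ligand comparisons and 17 to 19 for the lines. By rank the counts were 1 to 3 averaged and 0 to 4 by time for EGF-BT474, 0 to 3 and 3 to 8 for HRG-BT474, 1 to 3 and 2 to 5 for EGF-BT474R, 1 to 2 and 0 to 8 for HRG-BT474R, 0 to 1 for EGF against HRG in BT474 and 1 to 3 in BT474R. Control against baseline gave 0 to 1 in BT474 and 1 to 12 in BT474R, the lines 21 to 24, the EGF interaction 1 to 3 and the HRG interaction 0 to 2. The counts for BT474R turned on the control libraries at 12 h. Without replicate 2 control against baseline gave 12 and HRG by time 8, and without replicate 1 they gave 1 and 0, while without baseline replicate 2 control against baseline gave 10. In BT474, HRG by time gave 8 without HRG 24 h replicate 1. A lone remaining library was assumed to vary like the other groups. The IRF2 intronic and downstream IRF4 regions could not be fitted with a score of at least 400 or an equal number of peaks, where too few libraries had a peak.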
